A study of Prunus persica with 4 samples.

Results

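The candidates described here are 25 of the 186 miRNA candidates that the study lists as peach-specific. Their more abundant sequence is 21 nt long and starts with adenine, cytosine or guanine in place of uracil. For each candidate the deposited table gives raw read counts for the whole precursor and for the sequences named 5p and 3p, which come from the 5′ and the 3′ side of the hairpin. The arm with the higher count was taken as the more abundant one. The members were thus chosen by read counts, length and first base, and these are given as description. Sequences listed as the more abundant one for 4 or more candidates would also have been left out, but none of 21 nt without a first uracil was, and 38 candidates were set aside by number. Of the 36 candidates that met the limits on length and first base, 11 were set aside in this way. Their more abundant sequences had 8 to 584 reads with a median of 261. The members' own sequences had 5 to 330 reads with a median of 11, so the members hold the lower part of the range. At the neighbouring lengths the table lists 15 candidates of 20 nt and 4 of 22 nt that do not start with uracil, with medians of 7 and 57 reads and up to 1876 and 1035 reads.

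The reads come from 1 small RNA library without a replicate. It was made from mixed tissues of Prunus persica cv. Lovell trees grown in a garden in Nanjing, and the sources used here state no treatment. Young leaves were pooled with young stems and flower buds, so no count belongs to a single tissue and none has a biological error. The study also made 3 degradome libraries, from leaves, stems and flowers, which were not analysed here. No test between conditions was possible, and intervals of counts are exact 95% Poisson intervals that cover counting error only, because amplified reads are not independent molecules.

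Plant miRNAs are cut out of hairpin precursors by Dicer-like enzymes, which leave a duplex of the miRNA and its partner from the other arm (miRNA*) with short 3′ overhangs at both ends. One strand is then loaded into an ARGONAUTE (AGO) protein, and the other strand is usually lost. In Arabidopsis the first base takes part in this sorting: AGO1 mostly holds small RNAs that start with uracil, AGO2 and AGO4 those that start with adenine, and AGO5 those that start with cytosine. Canonical miRNAs of 21 nt mostly start with uracil, and miRNA* strands often start with another base.

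The more abundant sequences are printed because their first base and letters define the set. They are written 5′ to 3′ as deposited, with T for uracil and with bases 2 to 8 (the seed) in capitals. Adenine was first in 14 members, with 5 to 227 reads.
miRC10: aGGGCTGGgcacggttcggtt
miRC101: aGCTAGGTgcaacaagttcaa
miRC84: aTGGCAGAtgaggtggacagc
miRC33: aCAACTGGttgtgggcccaac
miRC178: aCTGAAAGtagcttgtggcaa
miRC174: aGGTGCAAgtgtaagtgcaga
miRC165: aGGAAATTgtagagagggaat
miRC30: aAGGGCCAatttggcattgct
miRC148: aGATGGTAgaacggaggctgt
miRC18: aTCCAACGaagcaggagccga
miRC68: aGTGGATTagtaacatcacgt
miRC79: aCCAGAAGcctcagaccacag
miRC161: aGGCTAGAaaggacatgtcta
miRC9: aTGGCTGCtgtgatgcgtatt
Cytosine was first in 7 members, with 6 to 236 reads.
miRC141: cATGGGTAagtggggaagatg
miRC73: cGTGGTATcagagtcatgtta
miRC100: cCAACGTCtggcttttggtga
miRC69: cTACGAACtgaagaccaagga
miRC70: cCAAGAAAtggaagttttggg
miRC147: cGCTATCCatcctgagtttca
miRC123: cTGAGATTggtagcaggctta
Guanine was first in 4 members, of which miRC25 and miRC41 list the same sequence.
miRC151: gCGGCATCatcaagattcaca
miRC149: gAGGATGAgaggtaggagtaa
miRC25: gGTACCCAtttattttggcta
miRC41: gGTACCCAtttattttggcta
The 25 members thus held 24 distinct sequences. No member shared its seed with the more abundant sequence of any other of the 186 candidates, apart from miRC25 and miRC41, which share theirs. Over bases 2 to 13 the count was the same.

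The 25 members had 1246 reads on their more abundant sequences. This is 8.28% of the 15045 such reads summed over all candidates (95% Wilson interval 7.85 to 8.73%). Both sums count a sequence once for each candidate that lists it as the more abundant one. Such a sequence belonged to 1 candidate only in 23 of 25 members and in 136 of all 186 candidates. The share is therefore one of listed counts and not of distinct reads. By first base, adenine had 482 of the 1246 reads (38.7%, interval 36.0 to 41.4%), cytosine 415 (33.3%, interval 30.7 to 36.0%) and guanine 349 (28.0%, interval 25.6 to 30.6%). The intervals of these shares treat reads as independent, and each of the sums by first base was led by 1 member. The 5 reads listed for both miRC25 and miRC41 are counted for each in the guanine sum. miRC10 gave 227 of the adenine reads, miRC141 gave 236 of the cytosine reads and miRC151 gave 330 of the guanine reads. These 3 members together held 63.6% of the reads of the set (interval 60.9 to 66.3%), and the 8 members with at least 30 reads on the precursor held 87.4% (interval 85.4 to 89.1%). The other 17 members had 5 to 18 reads each and 157 in sum. Reads per member had a median of 11, against 19 in the 15 candidates of 21 nt that start with uracil under the same exclusions and 12 in all candidates. Fewer than 50 precursor reads were counted for 20 of the 25 members (80.0%, Wilson interval 60.9 to 91.1%), 11 of the 15 that start with uracil (73.3%, interval 48.0 to 89.1%) and 145 of all 186 (78.0%, interval 71.5 to 83.3%), and these intervals overlap.

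The members with a known relative were found by searching each precursor for the 117 sequences that the study lists as conserved peach miRNAs. Exact occurrences on the same strand were found in 3 of 25 member precursors, in 0 of the 15 that start with uracil, and in 20 of all 186. They were the precursors of miRC151 with miR172, miRC147 with miR390 and miRC18 with miR4414. In all 3 the conserved sequence lay on the arm that faces the listed one. In the deposited structures the 21-nt conserved sequence on the facing arm of each formed a duplex with the listed sequence in which both 3′ ends overhang by 2 nt, the geometry of a miRNA and its miRNA*. A 20-nt miR172 sequence that also matches the miRC151 precursor exactly, gaatcttgatgatgctgcat, would leave overhangs of 3 nt at the 3′ end of the 5p sequence and 2 nt at its own. No reads are listed for these facing arms. The methods state that reads matching known miRNAs were removed before the candidates were predicted, so the missing counts are not read as a level of the conserved sequences. The listed sequence of miRC147 is nevertheless itself in the conserved list, and that of miRC151 differs from a miR172 sequence of the list at 2 bases. Why the counts are missing was not tested.

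miRC151 was the member with the most reads. Its 5p sequence had 330 reads (interval 295 to 368) out of 332 on the precursor, and the other 2 precursor reads were outside the listed sequence. The precursor of 182 nt lies at scaffold_6:4912768-4912949 (minus strand), in the coordinates of the deposited table, whose genome version is not given in the sources used here. The facing 3′ arm holds the miR172 sequence ggaatcttgatgatgctgcat. miR172 acts on mRNAs of APETALA2-type transcription factors, regulators of flowering and floral organs. The precursor is printed with the listed 5p sequence and this miR172 sequence in capitals.
miRC151 precursor: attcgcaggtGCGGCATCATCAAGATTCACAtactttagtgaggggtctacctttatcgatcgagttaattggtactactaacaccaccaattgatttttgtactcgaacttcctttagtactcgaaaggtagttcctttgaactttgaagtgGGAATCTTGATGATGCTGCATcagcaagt
The listed 5p sequence also resembled a sequence of the conserved list from the other arm of miR172, ggagcatcatcaagattcaca, from which it differed by G2C and A3G, counted from the 5′ end with the base of the conserved list first. In the deposited structure 3 of its 21 bases were unpaired. One other candidate was like it. The 20-nt 5p sequence of miRC49, gCAGCATCaccaagattcac, had 410 reads, was identical to miRC151 at 18 bases and differed by G3A and T10C with the base of miRC151 first. The miRC49 precursor, at scaffold_2:20686356-20686482 (plus strand), also holds a miR172 sequence, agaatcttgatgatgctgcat. Both were thus listed with the strand opposite a miR172 sequence.

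The 3p sequence of miRC147, with 9 reads (interval 4.12 to 17.1) of 10 on the precursor, is identical to a sequence listed under miR390. The precursor of 97 nt, at scaffold_6:24551357-24551453 (plus strand), also carries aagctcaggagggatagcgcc, the miR390 sequence, on its 5′ arm. miR390 starts with adenine and in Arabidopsis works through AGO7 to start the production of trans-acting small interfering RNAs from TAS3 transcripts. The precursor is shown with both sequences in capitals.
miRC147 precursor: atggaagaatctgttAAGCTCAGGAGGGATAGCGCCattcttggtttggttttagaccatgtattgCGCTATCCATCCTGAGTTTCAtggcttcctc
The structure left 2 of the 21 bases of the listed sequence unpaired, and the folding free energy had a size of 47.8 kcal/mol, or 49.3 kcal/mol per 100 nt.

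miRC18 had 9 reads (interval 4.12 to 17.1), all on its 3p sequence. Its precursor of 127 nt, at scaffold_1:29856977-29857103 (plus strand), holds the miR4414 sequence agctgctgactcgttggttca on the 5′ arm. With 5 unpaired bases its listed sequence was the least paired of the 25. The precursor is shown with both sequences in capitals.
miRC18 precursor: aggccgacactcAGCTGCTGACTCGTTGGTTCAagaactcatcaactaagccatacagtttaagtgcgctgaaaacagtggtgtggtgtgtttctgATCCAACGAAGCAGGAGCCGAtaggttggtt
With up to 2 mismatches allowed, 4 of 25 member precursors held a conserved sequence, against 1 of 15 that start with uracil and 26 of all 186. The further member was miRC73, with 91 reads (interval 73.3 to 112), all on the 5p sequence. Its precursor of 100 nt lies at scaffold_3:8575410-8575509 (plus strand). The 3′ arm of miRC73 matches the miR5139 sequence aaacctggctctgatacca with A1T, again with the base of the conserved list first. The longest part of the miRC73 sequence whose exact reverse complement is in its precursor is TGGTATCAGAG. These letters were searched for after the sequence was seen, because plant retrotransposons carry such letters where the initiator methionine tRNA primes their copying. Searched on both strands, these letters were in 1 of 186 precursors (0.538%), that of miRC73, and they overlap the stretch that faces the match to miR5139. A match of letters is a description and not a site.

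Among the members without a conserved sequence, miRC141 and miRC10 stood above the rest in reads. miRC141 had 236 reads (interval 207 to 268), and all reads of its precursor were on the 5p sequence. The precursor of 125 nt lies at scaffold_6:2760071-2760195 (plus strand). The listed sequence, in capitals, leaves 3 bases unpaired and forms 2 G:U pairs.
miRC141 precursor: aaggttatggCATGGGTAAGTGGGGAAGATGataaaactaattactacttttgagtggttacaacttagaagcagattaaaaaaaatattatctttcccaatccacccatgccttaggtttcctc
miRC10 had 227 reads (interval 198 to 259) on its 5p sequence and 9 further precursor reads outside it, the most among the members. Its precursor of 106 nt lies at scaffold_1:18242996-18243101 (plus strand). The sequence had the highest GC content of the set, 66.7%, with 1 unpaired base and 4 G:U pairs.
miRC10 precursor: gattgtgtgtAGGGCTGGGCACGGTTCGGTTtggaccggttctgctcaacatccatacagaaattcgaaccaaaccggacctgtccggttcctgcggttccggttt
For miRC141 and miRC10, the table lists no 3p sequence. For miRC141, at 0 counts up to 3 reads remain possible, which is 1.27% of what its precursor had. The deposited counts do not place the 9 further reads of miRC10, so no such limit is given for miRC10. The intervals of the 2 read counts overlap, so miRC141 and miRC10 are not told apart by reads, and both lie below the interval of miRC151.

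The next members in reads were miRC101 and miRC73, whose counts also overlap in their intervals. miRC101, at scaffold_4:6342180-6342274 (plus strand), had 94 reads (interval 76.0 to 115), all on its 5p sequence. miRC100 followed with 48 reads (interval 35.4 to 63.6), all on its 3p sequence, and lies at scaffold_4:5547777-5547889 (plus strand). Its folding free energy of 62.7 kcal/mol per 100 nt in size was the second largest of the set, and the stretch facing its listed sequence, tcaccaacagccagacgttgg, leaves 1 of the 21 bases unpaired. miRC84 had 32 reads (interval 21.9 to 45.2) of 33 on the precursor, at scaffold_3:2432500-2432631 (minus strand). miRC33 had 31 reads (interval 21.1 to 44.0), all on its 3p sequence, at scaffold_1:27613752-27613965 (minus strand). The counts of miRC100, miRC84 and miRC33 have overlapping intervals.

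Reads on both arms were listed for miRC25, miRC41 and miRC161, that is for 3 of 25 members (12.0%, Wilson interval 4.17 to 30%). Among the 15 candidates of 21 nt that start with uracil there were 5 (33.3%, interval 15.2 to 58.3%) and among all 186 there were 46 (24.7%, interval 19.1 to 31.4%), and these intervals overlap. The members with both arms had only 7 reads each on the precursor. Under 30 precursor reads, both arms were listed for 3 of 17 members (17.6%, interval 6.19 to 41%). The counts there were 2 of 8 candidates that start with uracil (25%, interval 7.15 to 59.1%) and 18 of 109 outside the set (16.5%, interval 10.7 to 24.6%). Over all candidates, members included, they were 21 of 126 (16.7%, interval 11.2 to 24.1%). Of the 8 members with at least 30 precursor reads, 0 had a second arm (interval 0 to 32.4%), against 3 of 7 candidates that start with uracil (42.9%, interval 15.8 to 75.0%), 25 of 52 candidates outside the set (48.1%, interval 35.1 to 61.3%) and 25 of all 60 at this depth, members included (41.7%, interval 30.1 to 54.3%). The candidates outside the set include 21-nt candidates without a first uracil that were set aside by number. Of these, miRC16, miRC17, miRC105, miRC107, miRC179 and miRC181 list both arms at this depth. The 0 of 8 also counts miRC151 and miRC73, whose facing arms are taken up next. The intervals treat candidates as independent, and the difference was not tested. By the methods, the search for known miRNAs allowed up to 2 mismatches, while the study's results count only perfect matches as conserved. The listed sequences of miRC151 and miRC147 match conserved sequences with 2 and 0 mismatches and kept their reads. How the removal bears on the facing arms of miRC151 and miRC73 was not tested, so no limit is given for their counts of 0. In miRC141, miRC101, miRC100 and miRC33 all precursor reads were on the listed sequence. There the limit of 3 reads is 1.27% to 9.68% of the precursor reads. miRC10 and miRC84 had 9 and 1 further precursor reads that the deposited counts do not place, so no limit is given for these members.

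miRC25 and miRC41 occupy the same 100 nt at scaffold_1:45731013-45731112, miRC25 on the plus and miRC41 on the minus strand. Each had 5 reads (interval 1.62 to 11.7) on the 5p sequence and 2 reads on the 3p sequence gccaaaataaatgggtaccca. The arms of the hairpin are inverted copies, with an exact inverted run of 23 nt, so that the same letters are read on either strand. The reads therefore do not tell which strand was transcribed, and the 5 reads and 2 reads count once. Both listed sequences are in capitals.
miRC25 precursor: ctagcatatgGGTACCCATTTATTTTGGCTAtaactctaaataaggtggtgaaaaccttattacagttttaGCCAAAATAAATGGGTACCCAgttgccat
miRC161, at scaffold_7:4143958-4144132 (plus strand), had 6 reads (interval 2.20 to 13.1) on its 5p sequence and 1 read on its 3p sequence gacatgtcctttctagcctct. Its precursor of 175 nt has the longest exact inverted run of the set, 28 nt, which covers the whole 5p sequence.
miRC161 precursor: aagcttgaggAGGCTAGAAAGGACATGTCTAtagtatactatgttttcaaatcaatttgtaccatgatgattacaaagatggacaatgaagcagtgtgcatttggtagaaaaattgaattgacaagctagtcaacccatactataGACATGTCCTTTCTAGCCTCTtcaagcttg
In all 3 members the 5p and 3p sequences form a duplex in which both 3′ ends overhang by 2 nt, as in 5 of 5 candidates that start with uracil and 42 of the 46 candidates with both arms in the whole table.

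The listed sequence was fully paired, without a G:U pair, in 5 of 25 members (20%, Wilson interval 8.86 to 39.1%). These were miRC25, miRC41, miRC33, miRC148 and miRC161, which hold 4 distinct sequences with 5 to 31 reads. In miRC33 the facing stretch has 22 nt, against 21 nt listed, so its duplex is not a perfect match. Full pairing of the listed sequence without a G:U pair was also found for 1 of 15 candidates that start with uracil (6.67%, interval 1.19 to 29.8%), for 4 of the 161 candidates outside the set (2.48%, interval 0.970 to 6.21%) and for 9 of all 186, members included (4.84%, interval 2.57 to 8.94%). miRC25 and miRC41, which occupy the same 100 nt, are both counted among the 5, and the intervals treat candidates as independent. The difference was not tested, since candidates are not replicates. miRC148 gave the largest folding free energy of the set, 171.23 kcal/mol in size, and also the largest per 100 nt, 63.4 kcal/mol. It had 10 reads (interval 4.80 to 18.4), all on its 3p sequence, and its precursor of 270 nt lies at scaffold_6:28212500-28212769 (plus strand). The listed sequence in capitals is the exact reverse complement of the facing stretch acagcctccgttctaccatct.
miRC148 precursor: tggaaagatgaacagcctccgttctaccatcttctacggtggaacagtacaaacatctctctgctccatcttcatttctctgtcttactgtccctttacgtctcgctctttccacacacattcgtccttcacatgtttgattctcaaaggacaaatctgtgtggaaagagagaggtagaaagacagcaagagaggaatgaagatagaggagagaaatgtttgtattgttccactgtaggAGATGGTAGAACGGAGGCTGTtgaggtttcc
Within the same span, at scaffold_6:28212587-28212686 (minus strand), lies miRC160, a candidate of 21 nt that starts with uracil. Its precursor of 100 nt is contained in that of miRC148, and its sequence tGTGTGGAaagagcgagacgt had 19 reads. The inner part of the same long hairpin was thus listed again on the other strand. Apart from miRC148 and the pair miRC25 and miRC41, no member overlapped a candidate, and the nearest distance was 35472 nt, from miRC70 to miRC71.

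At the other end of the range, miRC165 had the smallest folding free energy of the set, 19.65 kcal/mol in size or 20.1 kcal/mol per 100 nt. Its 11 reads (interval 5.49 to 19.7) were on the 5p sequence, which has 17 purines, and 3 bases were unpaired and 4 paired as G:U. It lies at scaffold_7:1597097-1597194 (minus strand). The facing stretch of 25 nt is longer than the listed 21 nt and is rich in pyrimidines.
miRC165 facing stretch: gttttctctctattatgtttctgtt
The remaining low members were miRC178 with 18 reads, miRC174 with 15, miRC69 with 14, miRC70 with 11, miRC30 with 10, miRC149 with 9, miRC68 and miRC79 with 7 each, miRC123 with 6 and miRC9 with 5. Their Poisson intervals overlap from neighbour to neighbour, so their order is not resolved. miRC70 had the shortest precursor, 65 nt with 5 nt between the arms, and miRC79 the longest, 275 nt with 212 nt between the arms. miRC30 was the member whose pairing depended most on the folding program, with 2 unpaired bases in the deposited structure and 6 in the structure from RNAfold.

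Over the whole set the median size of the folding free energy was 47.8 kcal/mol, with a range of 19.65 to 171.23 kcal/mol, against a median of 47.7 kcal/mol in the candidates that start with uracil and 47.35 kcal/mol in all candidates. Per 100 nt of precursor the medians were 42.0, 42.3 and 36.8 kcal/mol in the same order of sets. A median of 2 bases of the listed sequence was unpaired in the members and of 3 bases in both other sets. At most 4 were unpaired in 24 of the 25 members (96%), 14 of 15 candidates that start with uracil (93.3%) and 167 of all 186 (89.8%). The median GC content of the listed sequence was 47.6% in the members, 42.9% in the candidates that start with uracil and 43.5% in all candidates. The ranges of all these measures overlapped between the sets. The median precursor had 123 nt, and the range was 65 to 275 nt. In 25 of 25 members the listed sequence lay exactly 10 nt from the nearer end of the precursor, as in 180 of 186 candidates, so precursor ends follow the prediction program and are not measured ends.

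The 5′ arm carried the more abundant sequence in 13 of 25 members (52.0%, interval 33.5 to 70.0%), in 11 of 15 candidates that start with uracil (73.3%, interval 48.0 to 89.1%) and in 97 of 186 candidates (52.2%, interval 45.0 to 59.2%). Among the 8 members with at least 30 precursor reads it did so in 6. A median of 99.4% of the reads of a member precursor was on the more abundant sequence, and in 12 of 25 members (48%) all reads were. The median was 96.8% in the candidates that start with uracil and 98.0% in all candidates. All reads were on the more abundant sequence in 6 of 15 (40%) and 84 of 186 (45.2%) of these. Of the 7 scaffolds that carried members, scaffold 1 had 7, scaffold 3 had 6 and scaffold 6 had 5. No count over all candidates is given for the scaffolds. The plus strand held 17 of 25 members (68%, interval 48.4 to 82.8%). It held 8 of 15 candidates that start with uracil (53.3%, interval 30.1 to 75.2%) and 88 of all 186 (47.3%, interval 40.3 to 54.5%). These intervals overlap. Apart from overlapping precursors, stretches of 15 nt were shared between a member and another candidate for miRC30 with miRC115, miRC84 with miRC60, miRC151 with miRC49, and, in 1 or 2 stretches each, miRC10 with miRC170 and miRC79 with miRC133 and miRC183.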

How the data were processed

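Small RNAs of 1 library from mixed peach tissues were analysed. The authors kept reads of 18 to 30 nt, removed those matching other non-coding RNA in Rfam 10 and GenBank or known miRNAs in miRBase 18.0, and predicted candidates with MIREAP at default parameters. The deposited read counts are raw, without normalization. The deposited folding free energies, in kcal/mol, are from Mfold 3.2 and are given as their size. The version of the peach genome is not given in the sources used here, so no gene annotation was joined.

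The more abundant arm was the one with the higher count, or 5p where equal. Unpaired bases, facing stretches and overhangs were read from the deposited structures. Conserved sequences were searched without mismatches, and like sequences between candidates were those with at least 17 identical bases. Alternatives were RNAfold 2.7.2, distinct sequences, precursor reads and up to 2 mismatches. Intervals came from scipy 1.17.1 under python 3.11.15. The code was tested on simulated hairpins. No candidate in the table has under 5 precursor reads, and the members have a median of 12. All members are named, and full values are given for those with at least 30 precursor reads, both arms, a shared sequence or position, a conserved sequence, or an extreme energy. Members, lists and this rule were chosen with earlier results of these data known.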

Additional observations from a re-analysis of the deposited data

How the results depend on the processing

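The set had 25 members and also 25 with equal counts given to the 3′ arm or without the limit on shared sequences, 24 by distinct sequence or merged locus, and 36 without the exclusions by number. The reads of the members were 1246, 1270 by precursor and 1241 by distinct sequence. Without miRC151, an alternative chosen after seeing the data, 916 reads remained. The median was 11 reads per member, and 12 by precursor. Members with both arms were 3, and 2 with at least 2 reads on the less abundant arm or by distinct sequence. The median share of precursor reads on the more abundant sequence was 99.4%, and 100% with both listed arms summed. The median folding free energy was 47.8 kcal/mol in size, 47.9 kcal/mol with RNAfold and 47.2 kcal/mol by distinct sequence. Precursors with a conserved sequence were 3, and 4 with up to 2 mismatches. With RNAfold structures, also added after seeing the data, the duplexes of all 3 members with both arms kept overhangs of 2 nt. Counts of 5 to 18 reads in 17 members limit any ranking among them. No paired analysis was possible because the small RNA table comes from a lone library, without groups.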
